A study of Mus musculus with 16 samples.

Results

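The expressed solute carriers of lung endothelium were taken as the protein-coding genes whose symbol starts with Slc and a digit and whose mean over the 16 libraries was at least 1 FPKM, fragments scaled by transcript length and library total. They were 137 of 368 such genes in a table of 43346 genes. Because the members were selected on their own FPKM, their levels are given as a description and not as a finding. Just inside the threshold lay Slc6a9 at 1.08 FPKM, Slc27a3 at 1.06 FPKM and Slc2a6 at 1.02 FPKM. Just outside it lay Slc25a42 and Slc25a37, both at 0.963 FPKM, and Slc1a4 at 0.947 FPKM.

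RNA was sequenced from endothelial cells (ECs) sorted from the lungs of FVB mice at 2 months (young) or 18 months (aged) after PBS (sham) or bleomycin, a drug that injures the lung and leads to fibrosis. The study's methods place the harvest 30 days after either treatment. There were 5 libraries of Young Sham mice, 4 of Young Bleo mice, 3 of Aged Sham mice and 4 of Aged Bleo mice. By the study's methods all mice carried a Col1a1-GFP reporter, and the sort kept CD31-positive cells and removed CD45-positive, EpCAM-positive and GFP-positive ones. Aged mice were compared with young mice under each treatment, bleomycin with sham at each age, and the bleomycin responses of both ages with each other.

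Solute carriers are membrane proteins that move small molecules across the plasma membrane or the membranes of organelles, either down a gradient or coupled to the movement of another ion or solute. Families are numbered by sequence, so that glucose transporters of the SLC2 family, monocarboxylate transporters of the SLC16 family and the mitochondrial carriers of the SLC25 family stand under separate numbers. In lung ECs carriers take up glucose, amino acids, adenosine and serotonin from blood, and some of them serve the Golgi, lysosome or mitochondrion of every cell.

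The library totals ranged from 20.9 to 71.0 mega-counts, and each of the 137 members had at least 33 counts in each library. Of 8 endothelial markers 2 were called higher and 2 lower in young mice after bleomycin. Their summed level was 2273 to 2552 FPKM in young mice after sham and 1487 to 1913 FPKM after bleomycin, and 1989 to 2159 FPKM and 1334 to 1965 FPKM in aged mice. Most of this fall was in Cldn5, a tight junction gene of endothelium, at 1451 to 1720 FPKM in Young Sham and 705 to 1032 FPKM in Young Bleo and at least 614 FPKM in each library, while Erg, an endothelial transcription factor, was at 2.52 to 6.13 FPKM throughout. Ptprc, the gene of CD45, reached at most 0.517 FPKM and Epcam at most 0.798 FPKM. The 9 leukocyte markers nevertheless summed to 23.3 to 40 FPKM in young mice after sham and 147 to 421 FPKM after bleomycin, and to 52.5 to 161 FPKM and 193 to 1337 FPKM in aged mice, most of it from Lyz2. The sum of 3 mesothelial markers was at most 1.07 FPKM in Young Sham, 4.67 to 14.9 FPKM in Young Bleo, 2.66 to 10.9 FPKM in Aged Sham and 0.318 to 5.27 FPKM in Aged Bleo, and all 3 were called higher in young mice after bleomycin. That of 3 erythroid markers was 28.8 to 152 FPKM in Young Sham, 144 to 597 FPKM in Young Bleo, 226 to 474 FPKM in Aged Sham and 119 to 393 FPKM in Aged Bleo. Surfactant gene Sftpc was present in all 4 groups, at 43.4 to 378 FPKM. Platelet markers summed to 3160 FPKM in Aged Sham 14 and to at most 885 FPKM in any other library.

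Of the members, 2 lay at or above 100 FPKM, 29 at or above 10 FPKM and 42 under 2 FPKM, with a median of 3.20 FPKM. The most abundant was Slc9a3r2 at 530 FPKM (chr17:24639282-24650305, mm10), which carries a Slc symbol but encodes the scaffold NHERF2 and moves no solute. It alone made up 27.5% of the summed FPKM of the members. Young Sham libraries averaged 539 ± 39 FPKM (SD, n = 5), Young Bleo libraries 586 ± 13.7 FPKM (SD, n = 4), Aged Sham libraries 496 ± 58.9 FPKM (SD, n = 3) and Aged Bleo libraries 487 ± 37.7 FPKM (SD, n = 4). None of its 5 comparisons met the call used throughout, a DESeq2 Benjamini-Hochberg adjusted p no higher than 0.05 together with a log2 fold change of 0.5 or more in either direction. The other members that encode no carrier, Slc7a6os at 7.30 FPKM, Slc9a3r1 at 6.83 FPKM and Slc4a1ap at 1.75 FPKM, did not meet it either.

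Among the true carriers the highest was Slc43a3 at 134 FPKM, a transporter of purine nucleobases. The ADP/ATP carriers of the inner mitochondrial membrane came next in order with Slc25a5 at 89.4 FPKM and, further down, Slc25a4 at 62.2 FPKM. Slc3a2, the heavy chain that brings amino acid exchangers to the cell surface, was at 86.9 FPKM. The taurine transporter gene Slc6a6 followed at 69.2 FPKM over all groups, but its level depended on treatment as described below. Slc50a1, a sugar carrier, was at 58.6 FPKM and Slc48a1, which moves heme out of lysosomes, at 57.7 FPKM. Slc44a2 of the choline transporter-like family was at 51.5 FPKM. Slc26a10, an anion exchanger family gene without a well described substrate, had a mean of 45.9 FPKM that was made mostly by bleomycin libraries. Slc29a1, the equilibrative nucleoside transporter that takes up adenosine, was at 44.3 FPKM and Slc35b1, an ATP/ADP exchanger of the endoplasmic reticulum, at 38.4 FPKM.

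**Figure D1:**
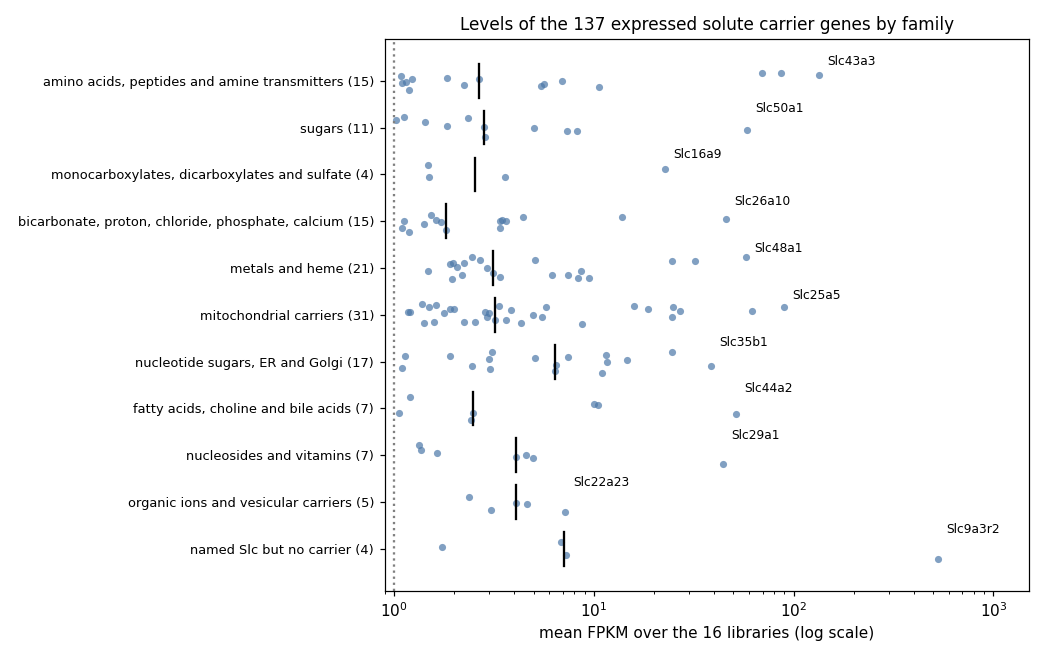
Mean FPKM over the 16 libraries (horizontal axis, log scale) of each of the 137 members, grouped by family with the number of members in brackets. Points are genes, vertical bars are family medians, the dotted line is the threshold of 1 FPKM and the highest gene of each family is named. Family medians run from 1.83 to 7.06 FPKM.

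Families were represented unevenly. Of 47 mitochondrial carrier genes 31 were members, of 33 genes for metals and heme 21, and of 28 genes for nucleotide sugars and related cargo of the ER and Golgi 17. By contrast 15 of 66 genes for amino acids, peptides and amine transmitters and 5 of 42 for organic ions and vesicular cargo were members. Median levels of the carrier families were close to each other, from 1.83 FPKM for ion exchangers of bicarbonate, protons, chloride, phosphate and calcium to 6.40 FPKM for the ER and Golgi carriers. Beneath the threshold, 42 of the 368 genes were listed at 0 in each library. Of the members, 120 had a mean of at least 1 FPKM in each of the 4 groups. The other 17 fell under it in at least 1 group, and 5 of these, Slc45a3, Slc16a3, Slc27a1, Slc15a3 and Slc7a6, passed only through both bleomycin groups, and Slc27a3 only through Young Bleo.

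Replicates differed about as much in the members as in other genes of such levels. The median SD of log2 normalized counts over the members was 0.24 and 0.27 in the young sham and bleomycin groups and 0.33 and 0.32 in the aged ones, against 0.22, 0.26, 0.30 and 0.27 over protein-coding genes with a mean of at least 1 FPKM. In the same order the widest members were Slc41a3, Slc22a23, Slc2a3 and Slc16a3, with SDs of 0.96, 1.36, 1.88 and 1.69.

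In young mice 12 members were higher and 16 lower after bleomycin than after sham. With 1 library left out there were 9 to 16 higher and 10 to 26 lower, with 10 lower without Young Bleo 17 or 19 and 26 without Young Bleo 20. Over all 18515 genes tested, 7.57% were called higher and 6.35% lower. Set beside the protein-coding genes with a mean of at least 1 FPKM, the members' shares of 8.76% higher and 11.7% lower stood against 8.60% and 8.97%. Of the 12 called higher, 6 were under 1 FPKM in at least 1 sham group. Among the 120 members at 1 FPKM in each group 5.00% were higher and 11.7% lower, against 7.17% and 8.60% of protein-coding genes that met the same condition. An unadjusted p under 0.05 was reached by 42.3% of members with DESeq2, against 33.3% of protein-coding genes at a mean of 1 FPKM and 26.9% of all genes, and by 40.9%, 31.1% and 24.9% with edgeR. Nothing particular to the carriers is read from these shares. edgeR's quasi-likelihood test called 21 of the 137 members, with 9.78% of all genes called in either direction. The median log2 fold change was -0.08 over the members and 0.01 over all genes. On normalized counts the 2 groups did not overlap for 26 of the 28 called members (92.9%, against 79.0% of the protein-coding genes called at a mean of 1 FPKM and 75.1% of all genes called). In each fit that left out 1 library 15 of the 28 calls held (53.6%, against 62.3% and 57.1%).

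The following promoters are printed because their genes were among the members with the largest changes: the anion exchanger gene Slc26a10, the glucose transporter gene Slc2a1 and the lactate exporter gene Slc16a3 rose, and the monocarboxylate transporter-like gene Slc16a9 fell. Each is 300 bases, from 250 before to 50 after the transcript start in RefSeq on GRCm38.p6, written 5′ to 3′ on the gene's own strand. Capitals mark ACGTG, a form of the core of the hypoxia response element, found on either strand as ACGTG or CACGT. Other forms of that core, such as GCGTG, were neither counted nor marked. The places are chr10:127180533-127180832 on the minus strand, chr4:119108495-119108794 on the plus strand, chr11:120948817-120949116 on the plus strand and chr10:70245026-70245325 on the plus strand, in the order below.
Slc26a10: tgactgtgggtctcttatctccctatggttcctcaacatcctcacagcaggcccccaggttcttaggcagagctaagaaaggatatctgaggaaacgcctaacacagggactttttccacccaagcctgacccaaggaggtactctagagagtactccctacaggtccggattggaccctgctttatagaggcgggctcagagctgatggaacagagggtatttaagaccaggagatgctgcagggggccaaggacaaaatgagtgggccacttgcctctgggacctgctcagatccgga
Slc2a1: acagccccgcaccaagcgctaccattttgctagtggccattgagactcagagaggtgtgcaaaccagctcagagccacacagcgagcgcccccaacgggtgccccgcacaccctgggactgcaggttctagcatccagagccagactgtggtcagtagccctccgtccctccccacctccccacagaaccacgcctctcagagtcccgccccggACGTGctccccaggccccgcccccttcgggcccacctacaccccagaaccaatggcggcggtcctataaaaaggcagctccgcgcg
Slc16a3: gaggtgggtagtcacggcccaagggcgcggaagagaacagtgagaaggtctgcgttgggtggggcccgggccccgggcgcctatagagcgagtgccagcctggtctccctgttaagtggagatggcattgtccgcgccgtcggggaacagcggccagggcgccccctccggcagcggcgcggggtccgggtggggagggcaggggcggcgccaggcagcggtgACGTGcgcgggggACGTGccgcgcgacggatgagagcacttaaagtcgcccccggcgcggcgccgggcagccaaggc
Slc16a9: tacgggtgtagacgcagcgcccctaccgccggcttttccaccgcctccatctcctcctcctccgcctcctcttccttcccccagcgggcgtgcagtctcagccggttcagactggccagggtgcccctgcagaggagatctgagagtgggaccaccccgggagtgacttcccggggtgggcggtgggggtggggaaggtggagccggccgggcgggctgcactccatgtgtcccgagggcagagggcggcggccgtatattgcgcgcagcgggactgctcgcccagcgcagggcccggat
The Slc2a1 window held the letters once, starting 36 bases before the transcript start, and the Slc16a3 window held them at 27 and at 14 bases before it. The windows of Slc26a10 and Slc16a9 did not hold these letters. The Slc16a9 window did hold GCGTG, so no contrast between rising and falling genes is read from these windows. CCGGAA, an ETS-type core searched for on either strand as CCGGAA or TTCCGG, was in none of the 4. Among the matched members called in young mice, 2 of 10 higher and 3 of 13 lower ones had it, Slc22a23 among the latter. Among 105 members matched in RefSeq, 32.4% had ACGTG and 35.2% had CCGGAA, against 19.6% and 14.9% of 32851 promoters of the same length. Those promoters were not selected for expression as the members were. Nothing particular to the carriers is read from the differences. A match is a description of letters and not of binding.

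Slc26a10 (chr10:127172426-127180645) had the largest rise. The Young Sham libraries held 13.6, 11.1, 5.54, 6.23 and 8.54 FPKM and the Young Bleo libraries 141, 115, 104 and 56.7 FPKM. The groups were far apart, with the lowest bleomycin library above the highest sham library. The log2 fold change was 3.52 ± 0.49 (SE; DESeq2 adjusted p = 2.71e-10, edgeR adjusted p = 0.00181). Its nearest neighbour B4galnt1, whose end lies 86 bases from the end of Slc26a10, was at 3.75 ± 0.801 FPKM (SD, n = 5) in Young Sham and 3.64 ± 1.01 FPKM (SD, n = 4) in Young Bleo.

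Slc6a6 (chr6:91684067-91759063), which imports taurine with sodium and chloride, moved in the same way. Its libraries held 30, 22.6, 17.3, 17.2 and 18.6 FPKM in Young Sham and 162, 169, 152 and 80.4 FPKM in Young Bleo. All 4 bleomycin libraries were above all 5 sham libraries. The log2 fold change was 2.72 ± 0.47 (SE; DESeq2 adjusted p = 7.39e-07, edgeR adjusted p = 0.00459). The call held in each fit that left out 1 library and gave the gene an adjusted p, and without Aged Bleo 2 DESeq2 gave none.

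Among carriers of glucose and lactate, Slc2a1 and Slc16a3 were called higher. Slc2a1 (chr4:119108711-119137330), the main glucose importer GLUT1 of endothelium, held 1.48, 1.16, 2.88, 1.12 and 1.57 FPKM in Young Sham and 13.8, 8.79, 5.59 and 3.17 FPKM in Young Bleo. The groups did not overlap, though Young Bleo 20 came close to the highest sham library. Its log2 fold change was 2.25 ± 0.52 (SE; DESeq2 adjusted p = 0.000425, edgeR adjusted p = 0.0172). The overlapping antisense gene Gm12868 went from 0.177 ± 0.185 to 0.642 ± 0.354 FPKM (DESeq2 adjusted p = 0.0373). Slc16a3 (chr11:120948480-120960868), the gene of the lactate exporter MCT4, was under 1 FPKM in all 5 sham libraries, at 0.242, 0.279, 0.268, 0.394 and 0.522 FPKM. In Young Bleo it reached 3.44, 2.85, 1.77 and 1.09 FPKM. The change was 2.72 ± 0.70 on the log2 scale (SE; DESeq2 adjusted p = 0.00203, edgeR adjusted p = 0.0180), but limma voom did not call it. Bsg, the chaperone that MCT4 needs to reach the membrane, was at 108 ± 1.85 FPKM (SD, n = 5) in Young Sham and 146 ± 23.2 FPKM (SD, n = 4) in Young Bleo, a log2 fold change of 0.41 that is under the fold threshold.

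The remaining sugar carriers went separate ways. Slc45a3, a sugar carrier family gene, rose from 0.949 ± 0.365 FPKM (SD, n = 5) to 4.07 ± 1.77 FPKM (SD, n = 4), a log2 fold change of 2.08 ± 0.42 (SE; DESeq2 adjusted p = 3.45e-05). The overlapping gene Gm29103 rose as well, from 1.26 ± 0.232 to 2.70 ± 0.800 FPKM (DESeq2 adjusted p = 0.0196). Slc2a8, an intracellular glucose transporter, fell from 9.19 ± 0.682 to 5.22 ± 1.06 FPKM, or -0.85 ± 0.17 on the log2 scale (SE; DESeq2 adjusted p = 4.85e-05). In all, 2 of 11 genes of the sugar carrier list were higher and 1 was lower, against 8.60% and 8.97% of protein-coding genes at a mean of 1 FPKM, and their median log2 fold change was -0.18. The list includes Slc5a6, a vitamin transporter, which was not called. Slc45a3 is a member only through the bleomycin groups.

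Among amino acid carriers, Slc7a6 rose with Slc6a6. Slc7a6, the y+LAT2 light chain that exchanges arginine for glutamine and works bound to the Slc3a2 heavy chain, held 0.513, 0.813, 0.528, 0.383 and 0.423 FPKM in Young Sham and 1.74, 1.79, 2.66 and 1.81 FPKM in Young Bleo. The groups did not overlap and the log2 fold change was 1.90 ± 0.38 (SE; DESeq2 adjusted p = 3.87e-05, edgeR adjusted p = 0.00670). Its relative Slc7a7 (y+LAT1) went from 5.80 ± 0.878 to 10.5 ± 1.90 FPKM, which missed the threshold (adjusted p = 0.0809). The heavy chain itself was at 76.8 ± 4.61 FPKM in Young Sham and 92.5 ± 13.1 FPKM in Young Bleo (adjusted p = 0.299). It exceeded all of its light chains by far: over the 16 libraries Slc7a7 averaged 6.92 FPKM, Slc7a6 1.09, Slc7a10 0.652, Slc7a5 0.400, Slc7a8 0.115 and Slc7a11 0.0237. This order did not hold in each group: in Aged Sham Slc7a10 was at 2.05 ± 1.12 FPKM and Slc7a6 at 0.480 ± 0.203 FPKM. In this family 2 of 15 genes were called higher and none lower, against 8.60% and 8.97% of protein-coding genes, with a median log2 fold change of 0.25. By edgeR the count was also 2 of 15. Slc7a6 is a member only through the bleomycin groups.

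The other members called higher were carriers of several kinds. The fatty acid transport genes Slc27a1 and Slc27a3 went from 0.539 ± 0.181 to 1.72 ± 0.447 FPKM and from 0.830 ± 0.245 to 1.74 ± 0.479 FPKM, with log2 fold changes of 1.67 and 1.03. The Slc27a3 call was lost without Young Bleo 17, and this gene is a member only through the group in which it was called higher. Slc52a3, a riboflavin transporter, rose from 1.23 ± 0.351 to 2.55 ± 0.230 FPKM, or 1.01 ± 0.25 on the log2 scale (SE; DESeq2 adjusted p = 0.00127). The magnesium transporter gene Slc41a1 changed by 0.64 on the log2 scale, a call lost without Young Sham 24 or Young Bleo 17. Slc25a39, which brings glutathione into mitochondria, changed by 0.59 and the zinc transporter gene Slc30a4 by 0.55, and edgeR called neither of them. The first call was lost without Young Sham 21, 22 or 23 or Young Bleo 17, 18 or 19, and the second without Young Sham 23, 24 or 25 or Young Bleo 18 or 19.

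The largest fall was that of Slc16a9 (chr10:70245100-70285968), a monocarboxylate transporter family gene also linked to carnitine and creatine. Young Sham libraries held 41, 42, 47.6, 40.5 and 40.7 FPKM, and Young Bleo libraries 1.96, 2.38, 2.66 and 15.6 FPKM. The sham libraries lay close together while Young Bleo 20 stood apart from its 3 replicates, still below each sham library. The log2 fold change was -2.98 ± 0.71 (SE; DESeq2 adjusted p = 0.000633, edgeR adjusted p = 0.0155). The antisense gene Gm7097, which lies within Slc16a9, moved with it, from 52.5 ± 5.47 FPKM (SD, n = 5) to 7.15 ± 8.12 FPKM (SD, n = 4). The counting is not stated to use strand, so that reads of these overlapping genes cannot be told apart.

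Slc22a23 (chr13:34179158-34345182), an organic ion transporter family gene of unknown substrate, showed the same arrangement. It held 11.4, 14.4, 12.5, 8.99 and 10.1 FPKM in Young Sham and 0.876, 1.09, 1.39 and 7.46 FPKM in Young Bleo. Again Young Bleo 20 was nearest to sham. The log2 fold change was -2.15 ± 0.63 (SE; DESeq2 adjusted p = 0.00724, edgeR adjusted p = 0.0454), a call lost without Young Bleo 17, 18 or 19. Together with Slc18b1, a vesicular polyamine transporter (log2 fold change -1.37 ± 0.41 SE, lost without Young Bleo 17 or 19), and Slc17a5, the lysosomal sialic acid exporter (-0.56 ± 0.14 SE, lost without Young Bleo 19), 3 of 5 carriers of organic ions and vesicular cargo were called lower, against 8.97% of protein-coding genes at a mean of 1 FPKM. edgeR called 2 of the 5 in young mice, and neither tool called any of them after bleomycin in aged mice.

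Carriers of iron, heme and zinc were next. Slc48a1 (chr15:97784355-97792692) held 77.8, 70.5, 63.5, 87.0 and 74.7 FPKM in Young Sham and 29.2, 27.4, 32.6 and 54.0 FPKM in Young Bleo. No library of either group reached into the other and the log2 fold change was -1.11 ± 0.27 (SE; DESeq2 adjusted p = 0.000906, edgeR adjusted p = 0.0178). It overlaps Hdac7, which was at 24.4 ± 1.98 and 19.9 ± 4.28 FPKM in these groups. Slc40a1 (chr1:45908068-45926523), the iron exporter ferroportin, held 2.74, 2.56, 2.71, 2.71 and 2.51 FPKM in Young Sham and 1.28, 0.836, 1.06 and 1.67 FPKM in Young Bleo. The groups were separate and the log2 fold change was -1.16 ± 0.32 (SE; DESeq2 adjusted p = 0.00344, edgeR adjusted p = 0.0293). The zinc exporter gene Slc30a1 fell from 9.80 ± 0.602 to 6.69 ± 0.731 FPKM, a log2 fold change of -0.59 ± 0.11 (SE; DESeq2 adjusted p = 3.32e-06). Slc39a10, a zinc importer, fell from 3.77 ± 0.346 to 2.55 ± 0.759 FPKM, a call lost without Young Bleo 17. Of 21 carriers of metals and heme 2 were higher and 4 lower, again against 8.60% and 8.97% of protein-coding genes, with 1 of 6 zinc exporters of the Slc30 family in each direction and 1 of 8 zinc importers of the Slc39 family lower.

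Of 31 mitochondrial carriers 1 was called higher and 4 lower, against 8.60% and 8.97% of protein-coding genes at a mean of 1 FPKM, with a median log2 fold change of -0.08. Slc25a33, a pyrimidine nucleotide carrier, went from 1.36, 1.58, 2.53, 2.29 and 2.14 FPKM to 0.453, 0.408, 0.665 and 0.978 FPKM. Its groups were separate, with a log2 fold change of -1.70 ± 0.35 (SE; DESeq2 adjusted p = 6.06e-05, edgeR adjusted p = 0.00847). Slc25a35, a mitochondrial carrier of unknown cargo, changed by -0.67 ± 0.18 (SE; adjusted p = 0.00234). Slc25a16 and the ATP-Mg/phosphate carrier Slc25a25 changed by -0.59 and -0.80. The Slc25a16 call was lost without Young Sham 23 or Young Bleo 17 or 19, and Slc25a25 lost its call in 11 of the 16 fits that left out 1 library, among them each Young Sham library. The abundant ADP/ATP carriers did not meet the threshold: Slc25a5 was at 80.1 ± 12.3 and 113 ± 20.2 FPKM (adjusted p = 0.153), and Slc25a4 at 66.2 ± 4.53 and 63.9 ± 5.00 FPKM (adjusted p = 0.796).

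Of the ion exchangers, Slc24a4, which exchanges sodium for calcium and potassium, and Slc12a5, a potassium-chloride cotransporter, were called lower, at log2 fold changes of -0.96 and -1.13. Both calls were lost without Young Bleo 18 or 19, the Slc12a5 call also without Young Sham 22, and edgeR made neither. The phosphate importer Slc20a1 (2.57 ± 0.287 and 3.76 ± 1.00 FPKM, adjusted p = 0.234) did not meet the threshold. Of 17 ER and Golgi carriers 1, Slc35f6, was lower, a call lost without Young Sham 21 or Young Bleo 17, 18 or 19, and edgeR called none of the 17. Among protein-coding genes at a mean of 1 FPKM 8.97% were lower. An unadjusted p under 0.05 was reached by 5 of the 17 with each tool, against 33.3% of those genes with DESeq2 and 31.1% with edgeR.

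**Figure D2:**
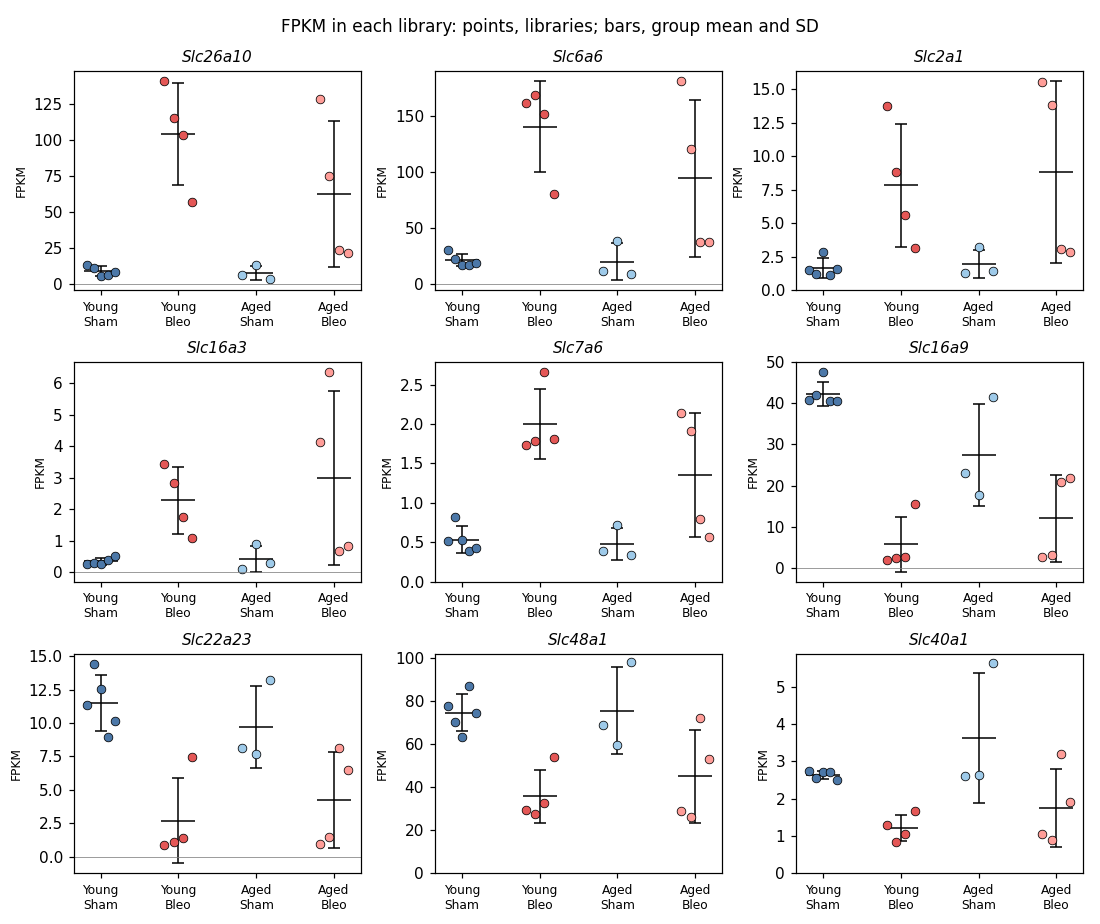
FPKM (vertical axes, linear) of 9 members in each library of the 4 groups. Points are libraries, long bars group means and whiskers SD. Slc26a10, Slc6a6, Slc2a1, Slc16a3 and Slc7a6 are higher in Young Bleo, at means of 104, 141, 7.83, 2.29 and 2.00 FPKM, and Slc16a9, Slc22a23, Slc48a1 and Slc40a1 lower, while the Aged Bleo libraries fall into a pair far from sham and a pair near it.

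In aged mice 10 members were called higher and 6 lower after bleomycin. The background was 3.40% of 18515 genes higher and 2.45% lower, and among protein-coding genes at a mean of 1 FPKM it was 3.86% and 3.53%. The members' shares were 7.30% and 4.38%. Among the 120 members at 1 FPKM in each group they were 5.00% and 4.17%, against 2.66% and 3.30% of protein-coding genes that met the same condition. The edgeR test called 1 member, with 0.797% of all genes called in either direction. At an unadjusted DESeq2 p under 0.05 there were 31 members (22.6%, against 22.4% of protein-coding genes at a mean of 1 FPKM and 19.0% of all genes), and limma voom called none. On normalized counts the groups did not overlap for 8 of the 16 called members (50%, against 76.3% of all genes called). In the fits that left out 1 library each, 3 of the 16 calls held throughout (18.8%, against 28.5% over all genes called), those of Slc26a10, Slc38a2 and Slc43a3. The counts ran from 2 to 11 higher and from 2 to 7 lower, with 2 and 3 without Aged Bleo 1, 4 and 3 without Aged Bleo 2, 3 and 2 without Aged Sham 15, and 6 higher without Aged Sham 13.

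The carriers with the largest rises were those of young mice. Slc26a10 held 6.26, 13.2 and 3.64 FPKM in Aged Sham and 129, 75.2, 23.4 and 21.8 FPKM in Aged Bleo. The groups did not overlap, and the log2 fold change was 2.89 ± 0.55 (SE; DESeq2 adjusted p = 6.67e-05, edgeR adjusted p = 0.0468). Slc16a3 held 0.105, 0.881 and 0.283 FPKM in Aged Sham and 4.12, 6.35, 0.666 and 0.814 FPKM in Aged Bleo, so that the groups overlapped at a log2 fold change of 2.74 ± 0.80 (SE; DESeq2 adjusted p = 0.0171, edgeR adjusted p = 0.0967). Slc6a6 held 12, 38.9 and 9.02 FPKM in Aged Sham and 182, 121, 37.8 and 37.8 FPKM in Aged Bleo. Aged Sham 14 stood above the lower pair of bleomycin libraries, and the log2 fold change was 2.13 ± 0.53 (SE; DESeq2 adjusted p = 0.00363, edgeR adjusted p = 0.0789). Slc2a1 held 1.27, 3.19 and 1.39 FPKM in Aged Sham and 15.6, 13.8, 3.06 and 2.81 FPKM in Aged Bleo, again with Aged Sham 14 above the lower pair, at 2.08 ± 0.59 on the log2 scale (SE; DESeq2 adjusted p = 0.0138, edgeR adjusted p = 0.117). The call of Slc6a6 was lost without Aged Bleo 1, and without Aged Bleo 2 DESeq2 gave it no adjusted p. Those of Slc16a3 and Slc2a1 were each lost without Aged Bleo 1, Aged Bleo 2 or Aged Sham 15, and that of Slc2a1 also without Aged Sham 13.

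The family of amino acid, peptide and amine carriers gave 4 of 15 higher and 2 lower in aged mice, against 3.86% and 3.53% of protein-coding genes at a mean of 1 FPKM. Slc7a6, among those higher, is a member only through the bleomycin groups. At an unadjusted p under 0.05 there were 7 of the 15 by edgeR, which called none, and 7 by DESeq2, against 19.7% and 22.4% of those genes. Neither of the genes called lower carries amino acids: Slc43a3 moves purine nucleobases and Slc6a4 serotonin. Slc38a2, the neutral amino acid importer SNAT2, held 2.30, 4.64 and 2.97 FPKM in Aged Sham and 11.1, 8.06, 6.29 and 6.18 FPKM in Aged Bleo. Its groups were separate and the log2 fold change was 1.14 ± 0.28 (SE; DESeq2 adjusted p = 0.00260, edgeR adjusted p = 0.0515). Slc7a6 and Slc7a7 changed by 1.38 and 1.18 on the log2 scale. The Slc7a6 call was lost without Aged Sham 13 or 15 or Aged Bleo 1 or 2, and that of Slc7a7, at an adjusted p of 0.0490, was lost in 12 of the 16 fits that left out a library. Slc43a3 held 123, 159 and 172 FPKM in Aged Sham and 102, 85.0, 119 and 136 FPKM in Aged Bleo. On FPKM these ranges met, on normalized counts they did not, and the log2 fold change was -0.58 ± 0.14 (SE; DESeq2 adjusted p = 0.00238, edgeR adjusted p = 0.0593).

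The largest falls in aged mice were those of Slc2a3 and Slc6a4. Slc2a3 (chr6:122727809-122801640), the high-affinity glucose transporter GLUT3 of neurons and platelets, held 1.31, 18.5 and 4.66 FPKM in Aged Sham and 0.306, 0.771, 2.20 and 2.58 FPKM in Aged Bleo. The value of Aged Sham 14 was far above the others, and the groups overlapped. The log2 fold change was -2.62 ± 0.76 (SE; DESeq2 adjusted p = 0.0165, edgeR adjusted p = 0.0872), a call lost without Aged Sham 14, Aged Bleo 1 or Aged Bleo 2. Slc6a4 (chr11:76998603-77032340), the serotonin transporter of lung endothelium and platelets, held 6.67, 23.9 and 11.1 FPKM in Aged Sham and 0.604, 1.20, 5.18 and 5.85 FPKM in Aged Bleo. These groups did not overlap and the log2 fold change was -2.26 ± 0.70 (SE; DESeq2 adjusted p = 0.0274, edgeR adjusted p = 0.0924), a call lost without Aged Sham 14 or 15.

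The 4 platelet markers Pf4, Ppbp, Itga2b and Gp9 were read beside both genes. They summed to 255 to 483 FPKM after sham and 100 to 231 FPKM after bleomycin in young mice, and to 581 to 3160 FPKM and 58.9 to 447 FPKM in aged mice, and each was above 1 FPKM in each library. The library with the highest sum, Aged Sham 14, had the highest Slc2a3 and the highest Slc6a4, and the library with the lowest sum, Aged Bleo 1, had the lowest of both. Between these ends the order was not always the same. Aged Sham 13 had a higher sum than Aged Sham 15, at 885 and 581 FPKM, but lower Slc2a3 and lower Slc6a4. The part of the platelet markers in these changes was not tested. In young mice Slc6a4 went from 5.04 ± 0.748 to 1.77 ± 1.52 FPKM (adjusted p = 0.0642) and Slc2a3 from 2.27 ± 0.764 to 0.941 ± 0.655 FPKM (adjusted p = 0.189). In such sorted bulk samples fewer cells of a type and less RNA per cell cannot be told apart.

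**Figure D3:**
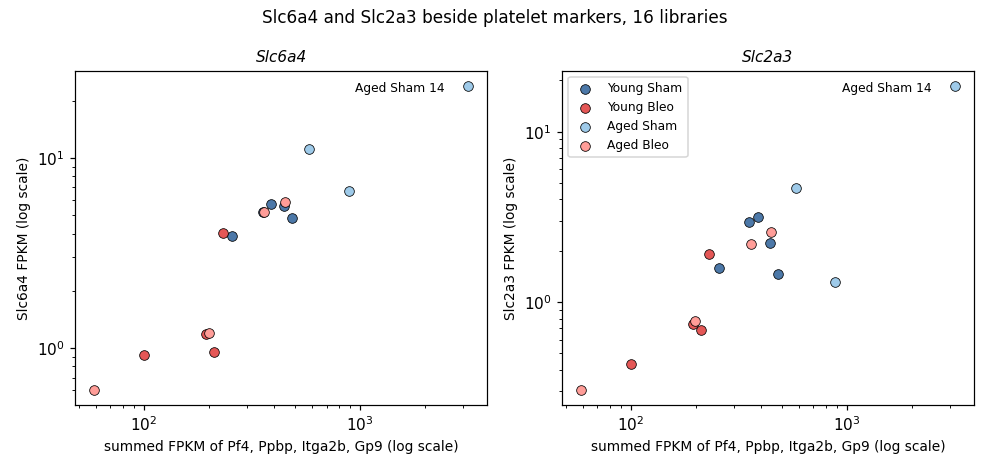
FPKM of Slc6a4 (left) and Slc2a3 (right) against the summed FPKM of the platelet markers Pf4, Ppbp, Itga2b and Gp9 in the 16 libraries, all axes on a log scale and points coloured by group. Aged Sham 14 has the highest value on each axis, at 3160 FPKM for the markers, 23.9 FPKM for Slc6a4 and 18.5 FPKM for Slc2a3.

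Other calls in aged mice concerned smaller or weaker changes. Slc40a1 was lower by DESeq2 at -1.17 ± 0.36 on the log2 scale (SE; adjusted p = 0.0256), with 2.62, 2.63 and 5.65 FPKM in Aged Sham and 1.06, 0.880, 3.19 and 1.90 FPKM in Aged Bleo. The groups overlapped, and the call was lost without Aged Sham 15, Aged Bleo 1 or Aged Bleo 2. Slc25a35 and Slc2a8 were lower as in young mice, at -0.76 and -0.59. The Slc25a35 call was lost without Aged Sham 15 and that of Slc2a8 in 10 of the 16 fits that left out a library. Slc52a3 and Slc41a1 were higher as in young mice, at 1.02 and 0.83, the former lost without Aged Sham 14 or 15 or Aged Bleo 1 or 2 and the latter without Aged Sham 15 or Aged Bleo 1. Slc48a1, at 75.6 ± 20.3 FPKM in Aged Sham and 45.1 ± 21.6 FPKM in Aged Bleo, missed the threshold (adjusted p = 0.0614). So did Slc16a9, at 27.4 ± 12.5 and 12 ± 10.6 FPKM (adjusted p = 0.384), and Slc22a23, at 9.72 ± 3.08 and 4.27 ± 3.61 FPKM (adjusted p = 0.300).

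The 2 bleomycin comparisons have no library in common. In both of them 7 members were called higher (Slc26a10, Slc6a6, Slc2a1, Slc16a3, Slc7a6, Slc52a3 and Slc41a1) and 3 lower (Slc40a1, Slc2a8 and Slc25a35), which is 35.7% of the calls of young mice and 62.5% of those of aged mice. Over all genes the shares were 21.1% and 50.3%, but Slc16a3 and Slc7a6 reached the mean of 1 FPKM only through the bleomycin groups, and nothing is read from the difference. All 16 members called in aged mice and 23 of the 28 called in young mice (82.1%) had the same sign at the other age, against 91.3% and 90.1% of all genes called.

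**Figure D4:**
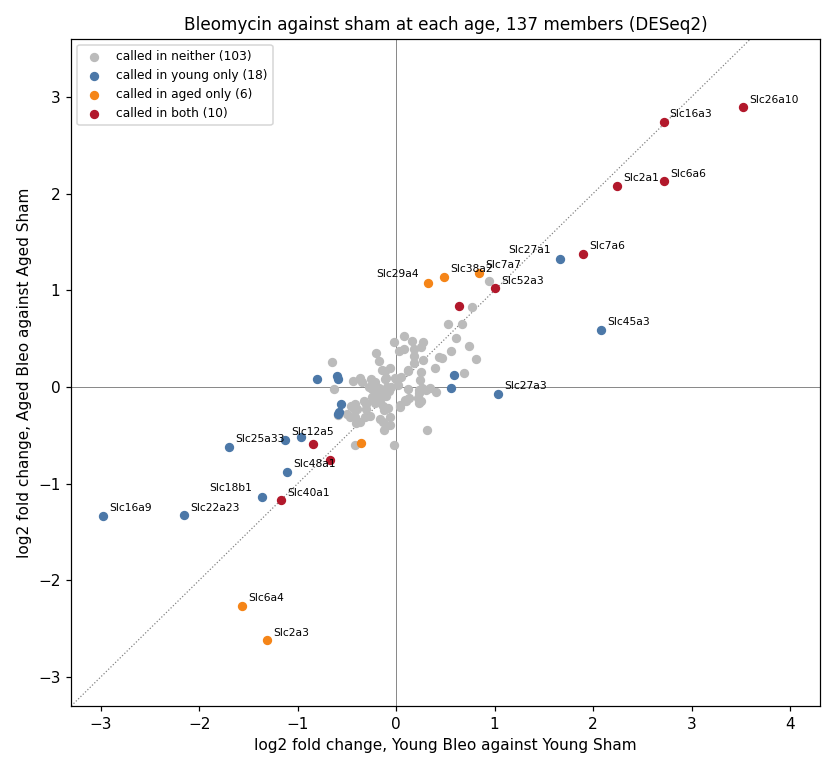
DESeq2 log2 fold change of each of the 137 members after bleomycin in young mice (horizontal axis) and aged mice (vertical axis), coloured by where the gene was called. The dotted line marks equal change. Slc26a10 lies farthest to the upper right at 3.52 and 2.89, Slc16a9 farthest left at -2.98, and Slc2a3 lowest at -2.62.

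The difference of the responses, aged minus young, was tested directly. DESeq2 called 0 of 137 members, with 0.137% of 20380 genes called higher and 0.240% called lower. The edgeR test also called 0 members, with 0.00546% of genes called. At an unadjusted p under 0.05 there were 9 members by DESeq2 (6.57%, against 7.79% of all genes) and 5 by edgeR. The difference for Slc16a9 was 1.65 ± 1.07 on the log2 scale (SE; DESeq2 adjusted p = 0.756), that for Slc45a3 was -1.49 ± 0.64 (SE; adjusted p = 0.477) and that for Slc26a10 was -0.63 ± 0.74 (SE; adjusted p = 0.882). These errors are too wide to show that the responses were alike.

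The spread within Aged Bleo was an arrangement of its 4 libraries that ran through many carriers. For each of the 28 members called in young mice, each library was placed on a scale from the Young Sham mean (0) to the Young Bleo mean (1) of log2 normalized counts with a pseudocount of 1. The median position was 1.11 in Aged Bleo 1 and 1.04 in Aged Bleo 2, but 0.31 in Aged Bleo 3 and 0.40 in Aged Bleo 5. Aged Sham libraries 13, 14 and 15 were at 0.13, 0.26 and -0.11. Young Bleo 20, at 0.66, was the young library nearest to sham, against 1.07 to 1.23 in its 3 replicates. For 20 of the 28 members (71.4%) Aged Bleo 1 and 2 both lay farther along than 3 and 5, and over all 2578 genes called in young mice this held for 73.6%. The share of the members was thus close to that of all genes called.

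In 6 of the 9 leukocyte markers, those of macrophages among them, Aged Bleo 1 and 2 also lay above 3 and 5. Ptprc, Cd3e and Cd79a did not follow and were highest in Aged Bleo 5 within that group, at 0.517, 4.38 and 1.23 FPKM. Other markers lay lower in Aged Bleo 1 and 2. All 4 platelet markers did so, with sums of 58.9, 199, 360 and 447 FPKM in Aged Bleo 1, 2, 3 and 5. Of the endothelial markers, Kdr was at 29.5, 30.1, 103 and 78.7 FPKM and Cldn5 at 614, 710, 1129 and 974 FPKM, while Emcn lay above. Cd68, a lysosomal protein of macrophages, was at 62.2, 42.7, 10.6 and 7.34 FPKM in Aged Bleo 1, 2, 3 and 5 and at 25.4, 22.3, 12 and 4.97 FPKM in Young Bleo 17, 18, 19 and 20. All 5 Young Sham libraries were at or under 1.01 FPKM. Of the 9 leukocyte markers, 7 stayed under 1 FPKM in each library of young sham mice and 6 in young bleomycin mice, against 5 and 1 in aged mice. Slc11a1, the iron and manganese carrier of macrophages, was under the member threshold at 0.448 FPKM, with 0.379 ± 0.202 FPKM in Young Sham, 0.412 ± 0.176 FPKM in Young Bleo, 0.150 ± 0.224 FPKM in Aged Sham and 0.796 ± 0.832 FPKM in Aged Bleo. Bleomycin against sham gave adjusted p-values of 0.969 in young and 0.337 in aged mice for it. The summed level of 4 pericyte and smooth muscle markers was 27 to 66.5 FPKM in Young Sham and 10.7 to 30.6 FPKM in Young Bleo. What part these markers had in the carrier changes was not tested.

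**Figure D5:**
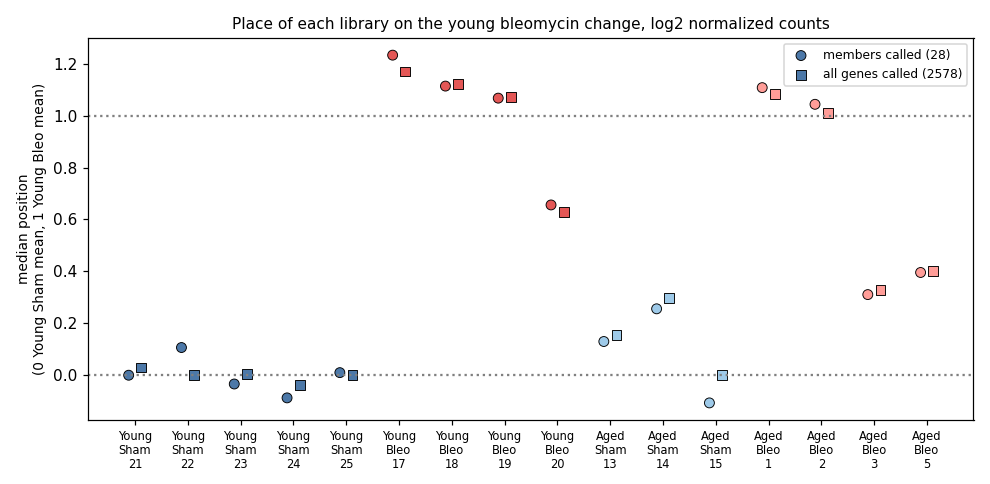
Median position of each library (horizontal axis, by group and number) on the scale from the Young Sham mean at 0 to the Young Bleo mean at 1, in log2 normalized counts, for the 28 members called in young mice (circles) and all 2578 genes called (squares). Young libraries set the scale. Aged Bleo 1 and 2 lie at 1.11 and 1.04 and Aged Bleo 3 and 5 at 0.31 and 0.40 for the members.

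Few members were called by age alone. Between Aged Sham and Young Sham 1 member was called lower and none higher by DESeq2, with 2.24% of 18515 genes called higher and 1.12% lower. The edgeR test called 0 members and 0.862% of all genes, and 16 members (11.7%, against 14.5% of all genes) had an unadjusted p under 0.05 by DESeq2 and 13 (9.49%, against 12.7%) by edgeR. The median log2 fold change was -0.07 over the members and 0.02 over all genes. The member was Slc29a4 (chr5:142702101-142722490), which takes up serotonin and other monoamines. It held 1.63, 1.56, 1.31, 0.747 and 1.95 FPKM in Young Sham and 0.468, 0.634 and 0.586 FPKM in Aged Sham. Each aged library was below each young one, at a log2 fold change of -1.22 ± 0.28 (SE; DESeq2 adjusted p = 0.00206, edgeR adjusted p = 0.0533), and the call held without any 1 library. In aged mice it was higher after bleomycin, at 1.5, 0.855, 1.37 and 1.48 FPKM (log2 fold change 1.07 ± 0.30 SE; adjusted p = 0.0101, lost without Aged Sham 13 or 15 or Aged Bleo 1). That comparison shares the Aged Sham libraries with the one above. Under the member threshold, Slc7a10 and Slc16a1 were called higher in Aged Sham than in Young Sham. Slc7a10 went from 0.394 ± 0.214 to 2.05 ± 1.12 FPKM (log2 fold change 2.55 ± 0.61 SE, DESeq2 adjusted p = 0.00269). Slc16a1 went from 0.0899 ± 0.0565 to 0.305 ± 0.197 FPKM (1.89 ± 0.59 SE, DESeq2 adjusted p = 0.0393).

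After bleomycin 2 members were called lower in aged than in young mice and none higher, with 0.406% of 18986 genes called lower and 0.585% called higher. The edgeR test called 0 members and 0.0437% of genes, and 12 members (8.76%, against 10.5% of all genes) had an unadjusted p under 0.05 by DESeq2 and 12 by edgeR (against 8.75% of all genes). Slc29a1 (chr17:45585200-45599606) held 48, 58.2, 54.5 and 53.4 FPKM in Young Bleo and 43.1, 35.3, 34 and 33.1 FPKM in Aged Bleo. The groups were separate at a log2 fold change of -0.52 ± 0.12 (SE; DESeq2 adjusted p = 0.00630, edgeR adjusted p = 0.212), a call lost without Young Bleo 18 or 19 or Aged Bleo 3 or 5. Between the sham groups it was at 48.1 ± 3.32 FPKM in Young Sham and 36.2 ± 5.59 FPKM in Aged Sham (log2 fold change -0.28 ± 0.13 SE; adjusted p = 0.266). Gm17080, an antisense gene overlapping it, was at 25.9 ± 3.61 FPKM in Young Bleo and 19.5 ± 1.78 FPKM in Aged Bleo. Slc35g2, a carrier gene of unknown cargo, held 3.67, 2.76, 4.81 and 3.70 FPKM in Young Bleo and 1.82, 2.59, 1.77 and 1.51 FPKM in Aged Bleo, at -0.92 ± 0.26 on the log2 scale (SE; DESeq2 adjusted p = 0.0415, edgeR adjusted p = 0.270). Its call was lost in 8 of the 16 fits that left out a library.

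Amino acid transporter genes known as targets of ATF4, the transcription factor of the amino acid and stress response, number 9 in the list used, of which 4 are members. DESeq2 tested 8 of them and called 2 higher in young mice after bleomycin, both under the member threshold, and 1 in aged mice, against 7.57% and 3.40% of all genes. Slc1a4, a neutral amino acid exchanger, went from 0.308 ± 0.276 to 1.48 ± 0.368 FPKM (log2 fold change 2.23 ± 0.54 SE; adjusted p = 0.000848) and Slc7a1, an arginine importer, from 0.633 ± 0.0387 to 1.15 ± 0.351 FPKM (0.85 ± 0.26 SE; adjusted p = 0.0106). The third was Slc38a2, described above for aged mice. Slc1a5, the glutamine carrier ASCT2, went from 0.785 ± 0.349 to 1.39 ± 0.330 FPKM in young mice, which missed the threshold (adjusted p = 0.0510). Of 18 other genes of the ATF4 response 4 were called higher in young mice and 0 in aged mice after bleomycin, against 7.57% and 3.40% of all genes, and edgeR called 4 and 0. Between the sham groups 2 of the 18, Nupr1 and Cebpb, were called higher in aged mice, against 2.24% of all genes, and edgeR called 1. After bleomycin in aged mice 7 of the 18 had an unadjusted p under 0.05, in either direction, by DESeq2 and likewise 7 by edgeR, against 19.0% and 16.3% of all genes. Atf4 itself was at 62.9 ± 7.35 FPKM in Young Sham and 56.1 ± 5.21 FPKM in Young Bleo (adjusted p = 0.413).

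Transporters outside the Slc nomenclature, chiefly ATP-driven pumps, ATP-binding cassette (ABC) transporters and organic anion transporters, gave 29 genes at a mean of at least 1 FPKM. In young mice after bleomycin 5 were higher and 2 lower, against 8.60% and 8.97% of protein-coding genes at that mean. Abca1, which exports cholesterol, went from 1.40 ± 0.181 to 3.80 ± 0.829 FPKM (log2 fold change 1.41 ± 0.41 SE; adjusted p = 0.00643). The prostaglandin transporter gene Slco2a1 went from 70.2 ± 8.52 to 46.6 ± 13.9 FPKM (-0.62 ± 0.17 SE; adjusted p = 0.00277), and Abcc3, an organic anion pump, from 9.80 ± 1.70 to 2.44 ± 1.89 FPKM (-2.06 ± 0.40 SE; adjusted p = 1.19e-05). In aged mice Abca1 was the 1 gene of the 29 called higher and none was called lower, against 3.86% and 3.53% of protein-coding genes at that mean. The edgeR test called 5 of the 29 in young mice and 0 in aged mice, against 9.78% and 0.797% of all genes. In aged mice 5 had an unadjusted p under 0.05 with each tool, against 22.4% of protein-coding genes at that mean with DESeq2 and 19.7% with edgeR.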

How the data were processed

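The authors aligned reads with STAR 2.5.2b to mouse genome mm10 and counted them with featureCounts of Subread, per the labels. Their table holds deposited raw counts and deposited FPKM values for 16 libraries, and the annotation release, strand setting and handling of multiply mapped reads are not given in the sources used here. The FPKM values follow from count, gene length and a library total of which gene counts made up 40.3% to 44.7%. The labels name SMART-Seq v4 with Nextera libraries and the study's methods a TruSeq kit.

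All 16 libraries were fitted in 1 DESeq2 model (version 1.42.0, R 4.3.3) with group as its term, and adjusted p-values were taken over all genes with one. Lost calls leave out fits in which DESeq2 gave no adjusted p. edgeR 4.0.16 (quasi-likelihood) stands beside it. On simulated data DESeq2 made more false calls than its nominal rate, and edgeR fewer than DESeq2. Those data were drawn with edgeR's own estimates of spread, which can favour edgeR. They do not give the rate of false calls in the libraries used here. Alternatives were limma voom (3.58.1), limma-trend on log2(FPKM + 0.1) and log2(FPKM + 1), TMM factors, a low-count filter, only the groups compared, members at 1 FPKM in each group, and leaving out each library. Replicate pairs differed beyond sampling noise (chi-square per degree of freedom 32.8 to 428), which does not show that they came from separate mice. Each library was counted once. The study describes the lungs as those of individual mice, which the labels do not state, and p-values measure the spread between libraries. Counts limit precision little at these depths.

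The members, families and marker lists were chosen with earlier results of these data known. Named genes were the 12 highest members, up to 5 called members at each end of each pairwise comparison, members called for the difference of responses, a set of well known carriers, those next to the threshold and those that encode no carrier; the remaining called members were added afterwards. Genes were matched by identifier, and some genes are not reported by name here. Reads of members that overlap another gene (61 of 137, 28 of them with a partner at 1 FPKM or more) may be shared.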

Additional observations from a re-analysis of the deposited data

Results flagged for a closer look

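In 123 groups of 4 or 5 libraries of the named genes, 10 had 1 library set apart from the others by a gap that exceeds Dixon's 95% critical value, and chance alone would give about 1 in 20. Young Bleo 20 was such a library in 4 genes: Slc16a9 at 15.6 FPKM (others 1.96 to 2.66), Slc22a23 at 7.46 FPKM (0.876 to 1.39), Slc18b1 at 2.78 FPKM (0.807 to 1.06) and Slc6a4 at 4.04 FPKM (0.919 to 1.19). Each of these values lies on the side of the sham libraries. Young Bleo 19 stood above its replicates in Slc7a6 at 2.66 FPKM and in its neighbour Slc7a6os at 9.44 FPKM, and Young Bleo 17 in Slc20a1 at 5.25 FPKM (others 3.12 to 3.41). Young Sham 23, the library with the lowest total, stood above the others in Slc2a1 at 2.88 FPKM (at most 1.57) and in Slc16a9 at 47.6 FPKM (40.5 to 42). Aged Bleo 1 was highest in Slc44a2 at 64.3 FPKM (47.5 to 49.5). Aged Sham has 3 libraries and was not examined in this way.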

How the results depend on the processing

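No paired analysis was possible because no 2 groups have a library number in common. In young mice after bleomycin the 12 members called higher and 16 lower became 19 higher with only the groups compared, 6 higher among members at 1 FPKM in each group and 8 lower with limma-trend on log2(FPKM + 1). With 1 library left out the counts ran from 9 to 16 higher and from 10 to 26 lower, with 10 lower without Young Bleo 17 or 19 and 26 without Young Bleo 20. In aged mice the 10 higher and 6 lower became 1 and 0 with edgeR, 0 and 0 with limma voom, 5 and 1 with only the groups compared, 4 and 0 with limma-trend on log2(FPKM + 0.1), 3 and 0 on log2(FPKM + 1), and 6 higher among members at 1 FPKM in each group. With 1 library left out they ran from 2 to 11 higher and from 2 to 7 lower: 2 and 3 without Aged Bleo 1, 4 and 3 without Aged Bleo 2, 3 and 2 without Aged Sham 15, and 6 higher without Aged Sham 13.

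Between the sham groups the 0 higher and 1 lower became 1 and 3 with only the groups compared, and 0 lower with edgeR, limma voom, limma-trend on log2(FPKM + 1) or members at 1 FPKM in each group. Without 1 library they ran from 0 to 3 higher (3 without Aged Sham 13, 1 without Aged Bleo 1 or 3) and from 1 to 4 lower (4 without Aged Sham 15, 2 without Young Bleo 17 or 20). Between the bleomycin groups the 0 higher and 2 lower became 1 higher with only the groups compared and 0 lower with edgeR, limma voom and both limma-trend scales. Without 1 library they ran from 0 to 5 higher (5 without Young Bleo 20, 1 without Aged Sham 13 or 14) and from 0 to 3 lower (0 without Young Bleo 19 or Aged Bleo 3 or 5, and 1 without Young Sham 21, 22 or 25 or Young Bleo 17 or 18). The difference of the responses gave 0 members in both directions under each alternative run. No called member changed direction under any alternative run. The cause of these shifts was not tested, beyond there being fewer libraries or genes in the fit. Called members numbered 28, 16, 1 and 2 in the 4 pairwise comparisons, and edgeR made 21, 1, 0 and 0 of these calls.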
